A study of Mus musculus with 8 samples.

Results

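The burning of fatty acids in intestinal epithelial cells (IECs) was followed through 37 genes, 37 of the 25239 genes listed in a bulk RNA-seq table. They comprise the enzymes and carriers of mitochondrial and peroxisomal beta-oxidation, the fatty acid uptake, binding and activation proteins, and well-known targets of the nuclear receptor PPAR-alpha. The members were taken by gene symbol, and every one of them was found in the table and passed the filter on low counts. The study asked how natural killer T (NKT) cells, which recognise lipids bound to CD1d, affect the epithelium, and it compared 4 samples of CD1d-KO mice (genotype label CD1d1/2 KO), which lack NKT cells, with 4 samples of wild-type (WT) mice (label C57BL/6Jax). Neither group received a treatment. Mice of both sexes aged 7 to 10 weeks were used and, by the study's methods, age and sex were matched between genotypes. The labels tie no sample to an age, a sex or an experiment, so the p-values below measure the spread between samples. Cells came from crypts of the proximal small intestine, 150000 per sample. The sort kept cells with the epithelial protein EpCAM and removed those with CD45 (leukocytes), CD31 (endothelium) or Ter119 (red cells). The knockout is carried by all cells of the animal, so loss of CD1d from the epithelium and loss of NKT cells cannot be told apart in this comparison. The study states that its mice were not littermates and that their gut microbiota may therefore differ. It also reports changes in other lymphocyte populations of the CD1d-KO intestine. The part of either in the results below was not tested.

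Long-chain fatty acids enter a cell with the help of CD36, are bound by FABP proteins and are activated to acyl-CoA by ACSL enzymes. The carnitine shuttle, with CPT1A at its gate, carries them into the mitochondrion, where each turn of beta-oxidation passes through a dehydrogenase, a hydratase, a second dehydrogenase and a thiolase, and peroxisomes shorten very long and branched chains by a parallel route. PPAR-alpha, a receptor activated by fatty acids, pairs with RXR and induces many of these genes, and in the small intestine it is active mostly in the absorptive enterocytes of the villus.

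Total counts ranged from 23610266 to 31629435 per sample. The targeted gene Cd1d1 had normalised counts of 7.15, 2.86, 4.89 and 0 in the 4 CD1d-KO samples, against 61.1 to 91.1 in WT samples. The 7 epithelial markers examined (Epcam, Cdh1, Krt8, Krt18, Krt19, Vil1 and Cldn7) were all detected, and 0 of them were called by DESeq2 or edgeR, or had an unadjusted p under 0.05. CD1d-KO samples 1 and 2 carried Y-linked counts (Ddx3y at 1722 and 2053) and the other 6 samples had at most 1.05 there. Xist, expressed from the inactive X chromosome, was at 67.9 and 50.5 in CD1d-KO 1 and 2 and between 21985 and 35403 in the other 6. By these genes, sex was not balanced between the genotypes among the sequenced samples, although the methods describe matching. The main results are also given for the 6 samples without Y-linked counts. Nnt, a mitochondrial transhydrogenase gene that is truncated in the C57BL/6J strain, lay between 4432 and 4979 in CD1d-KO and between 1756 and 1902 in WT, 2.33-fold apart at the nearest pair of samples, so genotype and strain background cannot be told apart for genes that differ between sublines. Stomach and Brunner gland markers summed to between 177 and 830.5 in CD1d-KO and between 1856 and 15230 in WT, with 6 of 10 tested markers called lower in CD1d-KO by DESeq2. All 10 were called by edgeR, and all 10 were lower at an unadjusted p under 0.05 in DESeq2. Leukocyte markers summed to between 439 and 9678 against 13610 and 19770, with 3 of 11 called lower (Cd8a, Coro1a and Jchain). At an unadjusted p under 0.05, 6 leukocyte markers were lower, and edgeR called 1. Most of the leukocyte sum was Cd74, which was not called (adjusted p = 0.379), and without it the sums were 109.5 to 236 in CD1d-KO and 208 to 1144 in WT, with overlap. Their part in the results below was not tested.

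Most of the 37 genes had slightly higher values in CD1d-KO IECs, and the few that passed the test belonged to fatty acid uptake and activation, acyl-CoA hydrolysis, the last step of mitochondrial oxidation, a peroxisomal step and the control of fuel choice. Of the 37 members, 7 were called higher in CD1d-KO (DESeq2, adjusted p under 0.05 over all genes tested), namely Pdk4, Cd36, Acot1, Acot2, Acaa2, Acsl1 and Hsd17b4, and 0 were called lower by DESeq2 or by edgeR. Over all 15446 genes tested, 1.65% were called higher and 2.38% lower. At an unadjusted p under 0.05, 17 members were higher and 1 was lower, where 7.07% of all genes tested were higher. The log2 fold change was above 0 for 33 members, 89.2% of them, against 50.3% of all genes, and its median was 0.17 against 0.000995 over all genes. The samples of the genotypes did not overlap for 8 members that were higher in CD1d-KO, 21.6% of the members against 4.09% of all genes, and for 1 that was lower, against 5.52%. The count of 7 depended on single samples. It was 4 without CD1d-KO 2 (0.81% of all genes), 3 without WT 1 (1.01%) and 3 without WT 4 (1.33%), and edgeR's quasi-likelihood test called 3 (Cd36, Acot1 and Pdk4), where it called 0.576% of all genes higher.

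**Figure D1:**
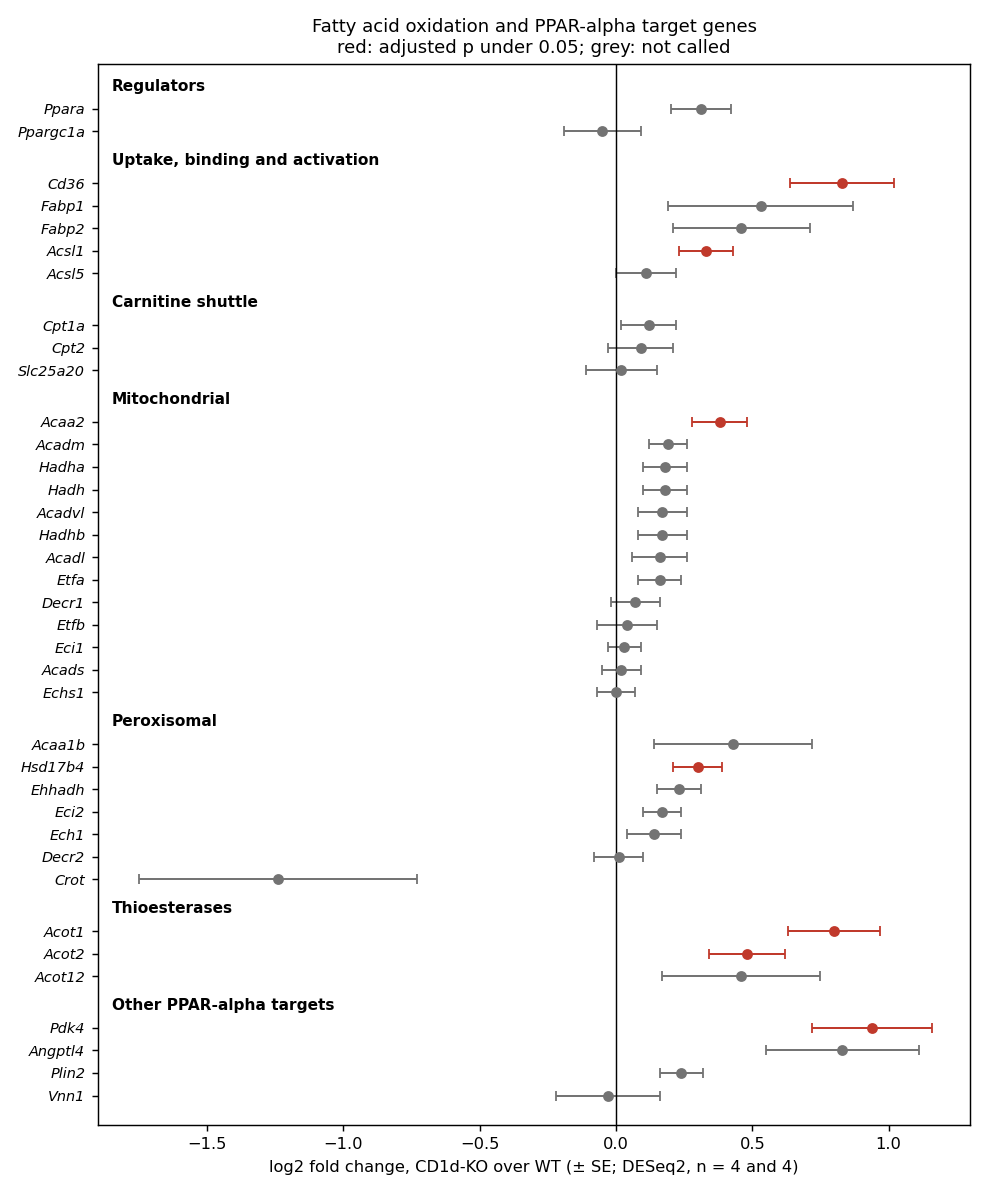
Log2 fold change of each of the 37 genes between CD1d-KO and WT IECs (horizontal axis, DESeq2, whiskers are SE, 4 samples a genotype), grouped by role and sorted within each role. Red marks the 7 genes with an adjusted p under 0.05, all to the right of 0, and Crot stands far to the left of the others at -1.24.

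The members differed widely in level. In TPM, a share of all transcripts that corrects for gene length, the mean over the 8 samples ran from 1730 for Fabp1 and 1370 for Fabp2 down to 3.67 for Acaa1b and 1.96 for Acot12, with a median of 126 against 17.2 over all genes tested. Hadh stood at 781, Acsl5 at 467 and Hadha at 440, each above at least 98.3% of the genes with counts. Of the genes called higher, Acaa2 (320 TPM) and Hsd17b4 (189) were abundant, while Acot1 (17.1), Acot2 (10.2), Cd36 (8.43) and Pdk4 (7.92) lay near the middle of all genes with counts.

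PPAR-alpha with RXR binds a repeat of 2 hexamers 1 base apart, a pattern that HNF4-type receptors also read. It was searched as AGGTCANAGGTCA on both strands of RefSeq promoter windows that run from 250 bases before to 50 after the start site (mm10, GRCm38.p6), with up to 2 mismatches among the 12 fixed letters. A match was found in 7 of the 32 members with a window, 21.9%, against 4.4% of all 27025 windows and 3.87% of those of tested genes. With 1 mismatch allowed the shares were 6.25% and 0.644%. Known PPAR-alpha targets were chosen as members, so these shares do not bear on the difference between genotypes. The matched genes were Acot12, Fabp1, Cd36, Plin2, Etfa, Echs1 and Slc25a20. Of the genes called higher, 5 had a window and 1, Cd36, held a match (20%). Acaa2, Hsd17b4, Angptl4, Decr1 and Vnn1 had no entry. The 4 windows below are those of the 2 closest matches, which were in Fabp1 and Acot12, of the called gene Cd36 and of Plin2, which lay nearest the threshold. They are written 5′ to 3′ on the strand of the gene, with the matched 13 bases in capitals. They lie 67 (Fabp1), 110 (Acot12), 63 (Cd36) and 225 (Plin2) bases before the start site, counted from the first matched base, and in each the match reads on the strand opposite to the gene. For Cd36 the start site of this window is an internal one, 53.1 kb inside the 5′ end of the gene as the table gives it, and for the other 3 it is the gene's own end.
Fabp1 (chr6:71199804-71199832, plus strand): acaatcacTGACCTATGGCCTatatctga
Acot12 (chr13:91741403-91741431, plus strand): taggacccTGACCTCTCACCTcctaagca
Cd36 (chr5:17835939-17835967, minus strand): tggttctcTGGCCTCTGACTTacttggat
Plin2 (chr4:86670264-86670292, minus strand): agctttcaGGACCCCTGACCTaagtcaga

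Of the regulators, Ppara itself (mm10 chromosome 15, 85735564 to 85806851) had normalised counts of 3649, 4247, 3511 and 4351 in CD1d-KO 1 to 4, against 2562, 3649, 3057 and 3445 in WT 1 to 4. WT 2 reached the level of the lower CD1d-KO samples, so the groups overlapped. The means were 3939 ± 421 and 3178 ± 478.5 (SD, n = 4 each), and the log2 fold change of 0.31 ± 0.11 (SE) was not called (adjusted p = 0.105). It passed the threshold without CD1d-KO 3 (adjusted p = 0.0494) and without WT 2 (adjusted p = 0.0489). Ppargc1a, which encodes the coactivator PGC-1alpha, stood at 1395, 1669, 1203 and 2011 in CD1d-KO, against 1483, 1753, 1512 and 1747 in WT. CD1d-KO samples held both its lowest and its highest value, and its log2 fold change was -0.05 ± 0.14 (adjusted p = 0.941).

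Uptake and activation held 2 of the 7 calls among 5 genes. Cd36 (chromosome 5, 17781690 to 17888959), the fatty acid translocase, had normalised counts of 359, 531, 523 and 632 in CD1d-KO, against 216, 348, 341 and 242 in WT. Every CD1d-KO sample lay above every WT sample, though CD1d-KO 1 did so by little. The means were 511 ± 113 and 287 ± 67.6 (SD, n = 4), 1.78-fold apart, with a log2 fold change of 0.83 ± 0.19 (adjusted p = 0.000987). It was called under all 16 alternatives, with log2 fold changes from 0.71 to 1.01. By gene set analysis of these samples, the study reports fatty acid metabolism as enriched in CD1d-KO. It also reports altered metabolic genes by qPCR in fresh CD1d-KO IECs, not named in its text, with the differences lost in established organoids. The study lists qPCR primers for Cd36, and if they were chosen from these samples Cd36 is not independent evidence for the list. Endothelial cells, macrophages and adipocytes also express Cd36. The 9 endothelial, stromal and adipocyte markers summed to between 26.7 and 54.7 normalised counts in CD1d-KO and between 26.9 and 49.1 in WT, with 0 of the 2 that could be tested called and Adipoq at 0. The myeloid marker Lyz2 was at 19.7 ± 7.42 normalised counts in CD1d-KO, against 13.7 ± 3.25 in WT (SD, n = 4), and was not called (adjusted p = 0.649). All other leukocyte markers examined had a lower mean in CD1d-KO than in WT, among them Tyrobp at 0.24 against 1.28. The part of such cells in the Cd36 result was not tested.

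Acsl1 (chromosome 8, 46471037 to 46536051), an acyl-CoA synthetase that feeds fatty acids to oxidation and storage, had normalised counts of 3548, 3825, 4139 and 4124 in CD1d-KO, against 2662, 3535, 3323 and 2893 in WT. The highest WT sample, WT 2, fell just short of CD1d-KO 1, so the groups did not overlap. Its log2 fold change was 0.33 ± 0.10 (adjusted p = 0.0218), and the call was lost without CD1d-KO 2, CD1d-KO 3, CD1d-KO 4, WT 1 or WT 4, with an adjusted p of 0.0945 at most. The more abundant Acsl5 was not called at 0.11 ± 0.11. Fabp1, the liver-type binding protein, had a larger log2 fold change of 0.53 ± 0.34 that was not called (adjusted p = 0.492), with 20042 in CD1d-KO 3 and 8473 to 11050 in the other CD1d-KO samples. Fabp2, the intestinal-type binding protein, was at 11683 and 14925 in CD1d-KO 1 and 2, at 23792 and 23425 in CD1d-KO 3 and 4, and between 11199 and 14671 in WT. Only CD1d-KO 3 and 4 stood clearly above WT, and the log2 fold change was 0.46 ± 0.25 (adjusted p = 0.387) over all samples and 0.81 (adjusted p = 7.81e-12) over the 6 samples without Y-linked counts. Without CD1d-KO 1 alone it was called as well (0.63, adjusted p = 0.00137).

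The carnitine shuttle held 0 calls among 3 genes by DESeq2 or edgeR, and 0 at an unadjusted p under 0.05. Cpt1a, its rate-limiting enzyme, stood at 15110, 15610, 13268 and 12255 in CD1d-KO, against 11051, 14087, 13490 and 13075 in WT. CD1d-KO 1 and 2 held the highest values and WT 1 the lowest, with the other samples interleaved. The log2 fold change was 0.12 ± 0.10 (adjusted p = 0.63) and had the other sign, -0.02, without the samples with Y-linked counts. Cpt2 (0.09 ± 0.12) and the carnitine-acylcarnitine carrier Slc25a20 (0.02 ± 0.13) were likewise not called, and the 95% interval of Slc25a20 ran from -0.23 to 0.27.

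Among 13 genes of mitochondrial oxidation, 12 had a log2 fold change above 0 and 1 was called. Acaa2 encodes the mitochondrial thiolase that releases acetyl-CoA. Its normalised counts were 6101, 6359, 7529 and 6107 in CD1d-KO, against 4224, 5445, 5642 and 4797 in WT, and the groups did not overlap. The means of 6524 ± 680.5 and 5027 ± 646 (SD, n = 4) gave a log2 fold change of 0.38 ± 0.10 (adjusted p = 0.0128), and the call was lost without WT 1 (adjusted p = 0.0562) or WT 4 (adjusted p = 0.0572). The chain-length-specific dehydrogenases Acadm (0.19 ± 0.07, adjusted p = 0.0989, and 0.0409 without CD1d-KO 1), Acadvl (0.17 ± 0.09) and Acadl (0.16 ± 0.10), both subunits of the trifunctional protein (Hadha 0.18 ± 0.08, Hadhb 0.17 ± 0.09), the hydroxyacyl-CoA dehydrogenase Hadh (0.18 ± 0.08) and the electron carrier subunit Etfa (0.16 ± 0.08) had log2 fold changes within 0.03 of each other, and none of them was called over all samples. Decr1, Etfb, Eci1, Acads and Echs1 lay between 0.07 and -0.00. For Acads and Echs1, the 95% intervals ran from -0.12 to 0.17 and from -0.14 to 0.14.

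**Figure D2:**
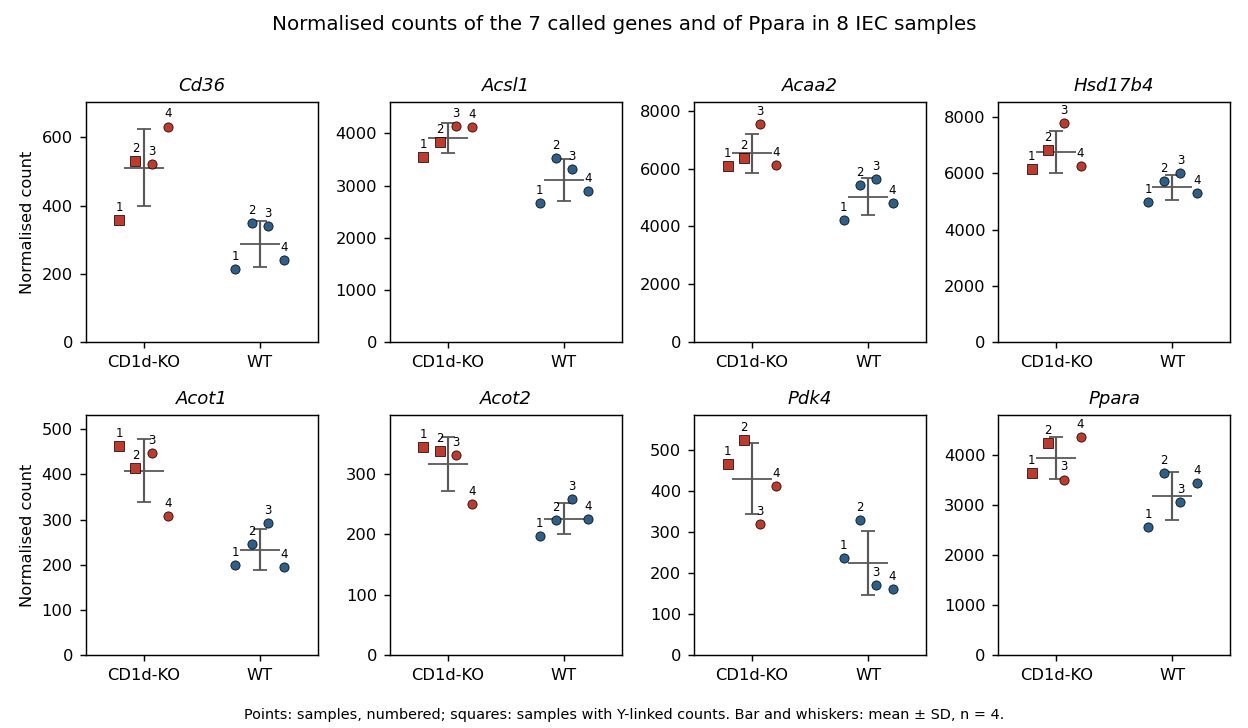
Normalised counts (vertical axes from 0) of the 7 called genes and of Ppara in each CD1d-KO and WT sample, with the mean and SD (n = 4). In Cd36, Acsl1, Acaa2, Hsd17b4 and Acot1 all CD1d-KO samples lie above all WT samples, while in Acot2, Pdk4 and Ppara the groups overlap.

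Of 7 peroxisomal genes, among which Ech1 and Eci2 are also mitochondrial, 1 was called. Hsd17b4 encodes the multifunctional enzyme of very-long-chain and branched-chain oxidation and had normalised counts of 6137, 6822, 7765 and 6267 in CD1d-KO against 4991, 5710, 6000 and 5286 in WT. The groups did not overlap, though CD1d-KO 1 lay close above WT 3. Its log2 fold change was 0.30 ± 0.09 (adjusted p = 0.0341), and the call was lost without CD1d-KO 2, CD1d-KO 3, WT 1, WT 2 or WT 4, with an adjusted p of 0.148 at most. Ehhadh, the bifunctional enzyme induced by PPAR-alpha ligands, was at 0.23 ± 0.08 (adjusted p = 0.0926) and Eci2 at 0.17 ± 0.07 (adjusted p = 0.125), neither called, although in both every CD1d-KO sample lay above every WT sample. Ech1 (0.14 ± 0.10), Decr2 (0.01 ± 0.09) and Acaa1b (0.43 ± 0.29) were not called. Acaa1b shares 97.6% of bases over 1089 bases with its copy Acaa1a, so reads may be split between them. Eci2 shares 91.8% of bases over 891 bases with Eci3, and the same may hold there.

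Crot, the peroxisomal carnitine octanoyltransferase that exports shortened acyl groups, had the opposite sign. Its normalised counts were 437, 1700, 1674 and 505 in CD1d-KO, against 2285, 2681, 2783 and 2440 in WT. All CD1d-KO samples lay below all WT samples, but they did so at unequal levels, CD1d-KO 1 and 4 at 17.2% and 19.8% of the WT mean and CD1d-KO 2 and 3 at 66.7% and 65.7%. With this spread the log2 fold change of -1.24 ± 0.51 was not called (adjusted p = 0.17). Of the low samples, CD1d-KO 1 had Y-linked counts and CD1d-KO 4 did not, and the cause of the unequal levels was not tested. Crot lies on chromosome 5, 8966048 to 8997146, and 8 other genes within 600 kb had a mean normalised count of at least 40 in a genotype. These neighbours were looked at after the values of Crot were seen. Crot itself was not called, but Abcb1b, a drug efflux transporter gene 99.7 kb away, was at 0, 1.90, 0.977 and 0.960 in CD1d-KO and at 66.8, 2.10, 64.0 and 53.8 in WT, so that it was near 0 in WT 2 as well as in CD1d-KO (adjusted p = 3.1e-06). Its neighbouring paralog Abcb1a was called higher in CD1d-KO (log2 fold change 0.64 ± 0.12, adjusted p = 1.17e-05), as was Rundc3b (0.45 ± 0.08, adjusted p = 1.75e-06). Tmem243, Dmtf1, Dbf4, Slc25a40 and Adam22 were not called, with log2 fold changes from -0.03 to 0.18.

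**Figure D3:**
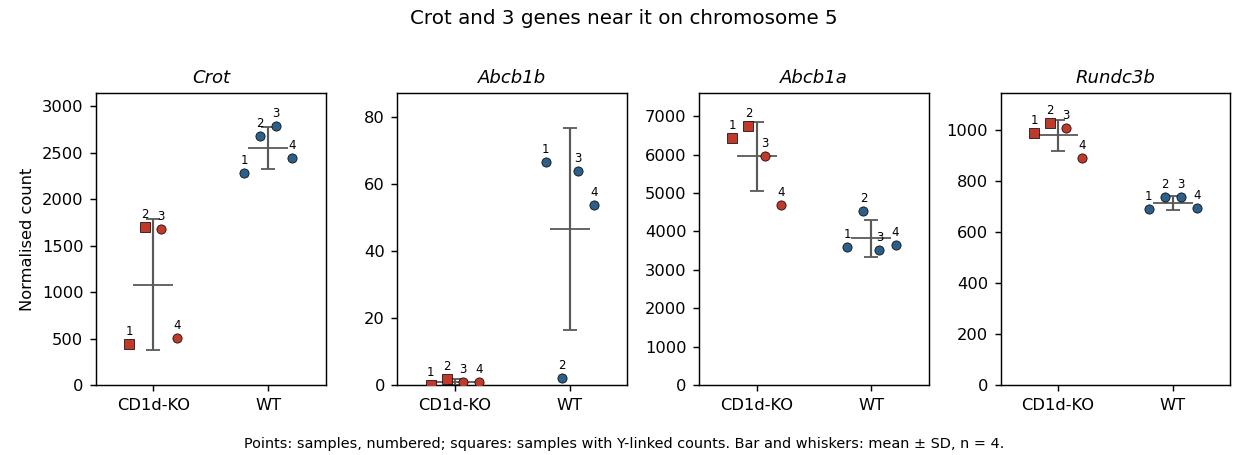
Normalised counts (vertical axes from 0) of Crot and of 3 genes within 600 kb of it in each CD1d-KO and WT sample, with the mean and SD (n = 4). Crot was at 437 and 505 in CD1d-KO 1 and 4 and near 1700 in CD1d-KO 2 and 3, and Abcb1b was near 0 in WT 2 and in all CD1d-KO samples.

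The thioesterases, which split acyl-CoA back to free fatty acid, held 2 calls among 3 genes. Acot1, the cytosolic enzyme, had normalised counts of 463, 413, 447 and 307 in CD1d-KO, against 199, 246, 293 and 196 in WT. CD1d-KO 4 stood just above WT 3 and the groups did not overlap. The means were 408 ± 70.05 and 234 ± 45.8 (SD, n = 4), 1.74-fold apart, with a log2 fold change of 0.80 ± 0.17 (adjusted p = 0.000155), called under all 16 alternatives. Acot2, its mitochondrial counterpart, stood at 343, 338, 331 and 249.6 in CD1d-KO, against 196, 224, 258 and 225 in WT. CD1d-KO 4 fell below WT 3, so the groups overlapped. Its log2 fold change was 0.48 ± 0.14 (adjusted p = 0.0208), and the call was kept in 2 of the 8 fits that each left out 1 sample (without CD1d-KO 4 and without WT 3) and had an adjusted p of up to 0.131 in the others. The 2 genes lie next to each other on chromosome 12 (Acot2 83987861 to 83993875, Acot1 84009502 to 84017669), and their transcripts share 95.1% of bases over 1274 bases, so reads may be split between them and the calls are not separate observations. Acot12, a cytosolic acetyl-CoA hydrolase, was at 0.46 ± 0.29 and not called.

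Of the other PPAR-alpha targets, Pdk4 had the largest log2 fold change of the 37 members. Its kinase blocks pyruvate dehydrogenase and thereby spares glucose when fatty acids are burnt. Its normalised counts were 466, 525, 321 and 413 in CD1d-KO, against 239, 329, 171 and 161 in WT. WT 2 lay above CD1d-KO 3, and all other WT samples lay below all CD1d-KO samples. The means were 431 ± 86.6 and 225 ± 77.5 (SD, n = 4), 1.92-fold apart, with a log2 fold change of 0.94 ± 0.22 (adjusted p = 0.00108). It was called in all 8 fits that each left out 1 sample and was not called over the 6 samples without Y-linked counts (0.71, adjusted p = 0.115) or with WT 3 and WT 4 left out (0.60, adjusted p = 0.0977). Angptl4, the secreted inhibitor of lipoprotein lipase, gave 294, 375, 174 and 167 in CD1d-KO, against 167, 195, 111 and 92.9 in WT. Both samples with Y-linked counts were the highest, CD1d-KO 3 and 4 lay within the WT range, and the log2 fold change of 0.83 ± 0.28 was not called (adjusted p = 0.0642) and was 0.27 without the samples with Y-linked counts. Angptl4 passed the threshold without CD1d-KO 3 (adjusted p = 0.0236), CD1d-KO 4 (adjusted p = 0.0182) or WT 2 (adjusted p = 0.0261). Plin2, which coats lipid droplets, lay just outside the threshold (0.24 ± 0.08, adjusted p = 0.0513) with no overlap between the genotypes and was called without CD1d-KO 4 (adjusted p = 0.0236), and the pantetheinase gene Vnn1 was at -0.03 ± 0.19.

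No member encodes an enzyme of ketone body metabolism, so 4 such genes were read from a further list. Of Bdh1, Acat1, Oxct1 and the ketone body and lactate carrier gene Slc16a1, 0 were called by DESeq2 or edgeR and 1, Oxct1, had an unadjusted p under 0.05 in DESeq2, with log2 fold changes from -0.11 ± 0.06 for Oxct1 to 0.13 ± 0.07 for Bdh1. Oxct1, which takes part in the use of ketone bodies, had no overlap between the genotypes, with all CD1d-KO samples below all WT samples, and its adjusted p was 0.299.

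Of 89 other genes of these pathways found in the table, 81 could be tested, and the median log2 fold change was 0.08. Of these 81, 6 were called higher and 3 lower, where 1.65% and 2.38% of all genes tested were. Those called higher were Cat, the peroxisomal catalase that removes the peroxide made by peroxisomal oxidation (0.38 ± 0.08, adjusted p = 0.000113), the lipid transfer and thiolase gene Scp2 (0.31 ± 0.10), the electron transfer flavoprotein dehydrogenase Etfdh (0.23 ± 0.07), the synthetase Acsl3 (0.31 ± 0.10), the retinol saturase Retsat (0.33 ± 0.09) and the omega-hydroxylase Cyp4a32 (1.12 ± 0.35). Cat was at 6798, 7697, 7970 and 7741 in CD1d-KO, against 5254, 6296, 5987 and 5750 in WT, without overlap, and was called under all 16 alternatives. Those called lower were 3 regulators of oxidative metabolism, the receptor Ppard (-0.27 ± 0.07, adjusted p = 0.0081), the coactivator Ppargc1b (-0.30 ± 0.08, adjusted p = 0.0147) and the orphan receptor Esrra (-0.24 ± 0.07, adjusted p = 0.0217), and in each of the 3 all CD1d-KO samples lay below all WT samples. Such a lack of overlap, with CD1d-KO lower, was found for 6 of the 81 genes, against 5.52% of all genes tested. With single samples left out, the call of Ppard was lost without WT 2 (adjusted p = 0.071) or WT 3 (adjusted p = 0.0553), that of Ppargc1b without CD1d-KO 2 (adjusted p = 0.0635) and that of Retsat without WT 1 (adjusted p = 0.0861) or WT 4 (adjusted p = 0.0775). Esrra stayed called in 4 of these 8 fits, and Scp2, Etfdh, Acsl3 and Cyp4a32 in 2 each. Acaa1a (0.00 ± 0.08), Pparg (0.20 ± 0.11), Hnf4a (-0.01 ± 0.06) and Creb3l3 (0.24 ± 0.24) were not called. Acot3 had a mean of 1.19 normalised counts in CD1d-KO and 0.485 in WT and received no adjusted p. Exons of Etfdh, Acsl3 and Esrra, and of the members Acaa1b and Acot12, overlap those of a neighbouring gene by 23 to 279 bases. Strand was not used in counting, so reads over these stretches may be given to the wrong gene or left out.

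**Figure D4:**
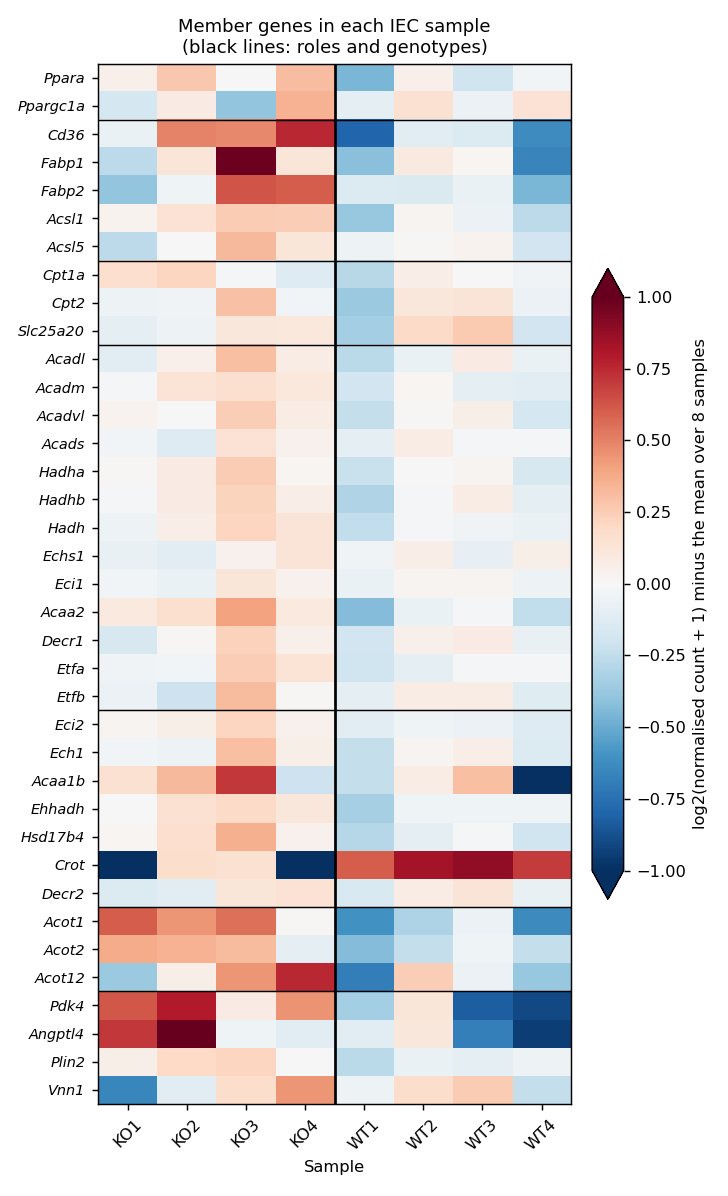
Each of the 37 genes (rows, grouped by role) in each of the 8 samples (columns), as log2(normalised count + 1) minus its mean over the samples, with colours that saturate at -1 and 1. CD1d-KO 3 is the highest sample for 23 of the genes and WT 1 the lowest for 22. Only in Crot do all CD1d-KO samples lie below all WT samples.

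Many members shared the same highest and lowest samples. A score was taken as the mean over the 37 genes of log2(normalised count + 1) minus each gene's mean over the samples. It was -0.05, 0.13, 0.25 and 0.10 in CD1d-KO 1 to 4 and -0.25, 0.04, -0.00 and -0.21 in WT 1 to 4. CD1d-KO 1 lay below WT 2 and WT 3, so the groups overlapped, and the mean was 0.11 ± 0.12 in CD1d-KO and -0.11 ± 0.14 in WT (SD, n = 4). CD1d-KO 3 was the highest sample for 23 of the 37 genes and CD1d-KO 4 for 7, while WT 1 was the lowest for 22 and WT 4 for 7. By role, the difference in score between the genotypes was 0.57 for the thioesterases, 0.49 for the other PPAR-alpha targets, 0.43 for uptake, binding and activation, 0.13 for mitochondrial oxidation, 0.12 for the regulators, 0.08 for the carnitine shuttle and -0.03 for the peroxisomal genes, which include Crot. Without the 7 called genes the score of the other 30 differed by 0.13.

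Much of this order of samples was shared by markers of mature villus enterocytes. The same score over 14 enterocyte genes that are not members (among them Alpi, Apoa4, Sis and Lct) was -0.35, 0.04, 0.37 and 0.37 in CD1d-KO 1 to 4 and -0.27, 0.07, 0.07 and -0.31 in WT 1 to 4. The mean enterocyte score was 0.11 ± 0.34 in CD1d-KO and -0.11 ± 0.21 in WT (SD, n = 4). The difference of 0.22 was about that of the member score, 0.21. Log2 fold changes of the enterocyte genes ran from -0.01 (Anpep) to 0.59 (Apoc3). The enterocyte score was low in CD1d-KO 1, WT 1 and WT 4, which also had the lowest member scores, and high in CD1d-KO 3 and 4. Of the 14 enterocyte markers, 0 were called between the genotypes by DESeq2 or edgeR, 3 were higher in CD1d-KO at an unadjusted p under 0.05, and their summed counts overlapped (196900 to 303000 in CD1d-KO, 211100 to 274400 in WT). In bulk samples, more cells of a type and more RNA per cell cannot be told apart, and the part of enterocyte content in the result was not tested. The score of 12 clock genes was between 0.075 and 0.097 in CD1d-KO and between -0.173 and 0.049 in WT, without overlap, with 1 gene called higher (Tef, 0.52 ± 0.16, adjusted p = 0.0389), 4 higher at an unadjusted p under 0.05 and 0 called by edgeR. Per1 (-0.26), Per2 (-0.11), Cry1 (-0.09) and Npas2 (-0.04) had log2 fold changes below 0, so the score averages genes of both signs. The part of the clock in the result was not tested.

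**Figure D5:**
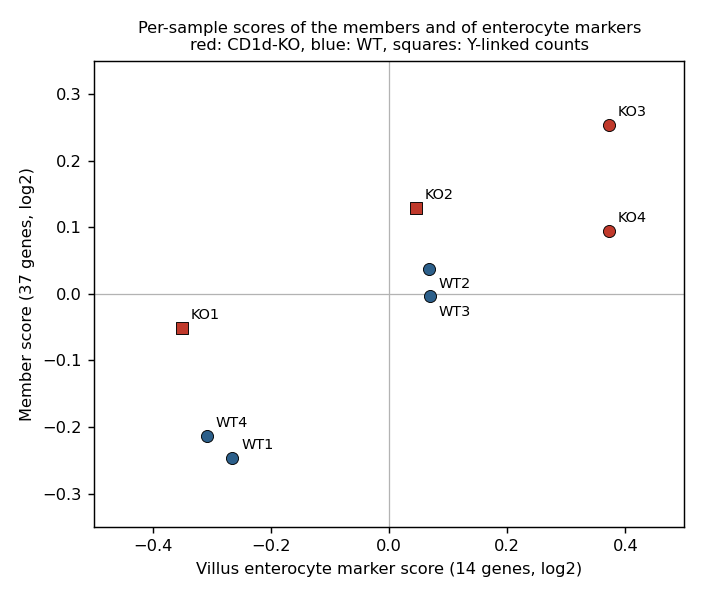
Mean score of the 37 genes (vertical axis) against that of 14 villus enterocyte markers (horizontal axis) in the 8 samples, both as log2 deviations from the mean over all samples. WT 1, WT 4 and CD1d-KO 1 lie at the lower left and CD1d-KO 3 and 4 at the right, and no WT sample has an enterocyte score near that of CD1d-KO 3 and 4.

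When both samples that carried Y-linked counts were set aside, 2 CD1d-KO and 4 WT samples remained, and 6 members were called higher, where 1.22% of all genes were. These were Cd36 (log2 fold change 1.01, adjusted p = 5.34e-05), Acaa2 (0.44, adjusted p = 0.0187), Acsl1 (0.41, adjusted p = 0.0152), Acot1 (0.69, adjusted p = 0.0386), Hsd17b4 (0.35, adjusted p = 0.0413) and Fabp2. Of the 7 genes called over all samples, 5 were called here as well, while Pdk4 and Acot2 (0.36, adjusted p = 0.453) were not. The median log2 fold change of the members was 0.26, and the only CD1d-KO samples left were 3 and 4, the ones with the highest enterocyte scores. With WT 3 and WT 4 left out, the samples with the most stomach gland counts, 3 members were called higher (Cd36, Acot1 and Acaa2), where 0.739% of all genes were, and the median was 0.22. This alternative was chosen after seeing the data.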

How the data were processed

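Bulk RNA-seq (poly(A) libraries) of sorted IECs was analysed in 4 CD1d-KO and 4 WT samples, grouped by their labels. The authors deposited raw counts per gene, which featureCounts 1.6.4 made, per the file headers, from primary alignments of read pairs to exons of an mm10 annotation without regard to strand. The submitters' processing notes name HISAT2 and GRCm39. Coordinates are those of the table (mm10).

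All 25239 listed genes were fitted with DESeq2 1.42.0 (R 4.3.3), the tool the study's methods name, on genotype alone, with its default size factors, outlier rule and independent filtering (mean count of 2.41). Benjamini-Hochberg adjustment ran over 15446 genes, with calls at an adjusted p under 0.05. Errors are SE for log2 fold changes and SD for normalised counts. TPM was computed from the deposited counts and gene lengths. Genes with deep counts are measured more precisely than Acot12 or Acaa1b. Reads carried no molecular identifiers. A chi-square test found every pair of replicates further apart than sampling noise. Scripts were tested on simulated data.

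All 37 members are accounted for. Called members, Ppara, Ppargc1a and Cpt1a are given in every sample, and other pathway genes where called, beside Acaa1a, Acot3, Pparg, Hnf4a and Creb3l3. The per-sample values of Crot, Angptl4, Fabp2 and Cat, the neighbours of Crot and the ketone body genes named were chosen after values were seen. Some genes that the rule names are not reported here. Members and lists were chosen with earlier results of these data known. Among 16 alternatives were edgeR 4.0.16, other size factors and filters, a replicate block, the 6 samples free of Y-linked counts and each sample left out. Stomach, leukocyte, epithelial, enterocyte, clock, and endothelial and stromal markers are given with the results. Of 9 crypt stem and cycling markers 0 were called (0 by edgeR, 0 at an unadjusted p under 0.05), of 5 Paneth markers 2 were higher (Lyz1 and Clps, 3 at an unadjusted p under 0.05) and of 3 tested liver and pancreas markers 1 was higher (Ttr, 2 at an unadjusted p under 0.05). Promoter windows are RefSeq's, and 5 members had none.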

Additional observations from a re-analysis of the deposited data

Results flagged for a closer look

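In 104 groups of 4 samples (52 genes in each genotype), a sample stood apart from the other 3 in 4 groups, by Dixon's test at the 95% level, where chance gives about 5% of groups. Cpt2 stood at 4717 normalised counts in CD1d-KO 3, above the other CD1d-KO samples. Eci2 was also highest in CD1d-KO 3, at 2509. Ehhadh was lowest in WT 1, at 2753. Acot2 was lowest in CD1d-KO 4, at 249.6. CD1d-KO 3 and WT 1 are the samples in which most of the 37 genes were highest and lowest, and the causes were not tested.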

How the results depend on the processing

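The median log2 fold change of the 37 members stayed between 0.13 and 0.26 under all 16 alternatives (main value 0.17). The counts of calls moved more. In all genes 622 calls became 299 with edgeR, 372 without the samples with Y-linked counts and 331 with WT 3 and WT 4 left out (chosen after seeing the data), and lay between 323 and 646 when single samples were left out (323 without CD1d-KO 2, 385 without WT 2, 406 without WT 1). Members called higher were 3 with edgeR, 3 with WT 3 and WT 4 left out and 3 to 8 with single samples left out. Other pathway genes called higher went from 6 to 1 with edgeR, 3 without Cook's rule and independent filtering, 3 without the samples with Y-linked counts, 1 with WT 3 and WT 4 left out, and 1 to 7 with single samples left out (3 without CD1d-KO 1, 2 without CD1d-KO 2, WT 1 or WT 2, 1 without WT 4). Those called lower went from 3 to 0 with edgeR, 1 without the samples with Y-linked counts, 0 with WT 3 and WT 4 left out, and 1 to 3 with single samples left out (1 without CD1d-KO 2, WT 2 or WT 3). The causes were not tested.

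The labels do not say whether equal replicate numbers mark pairs. Same-numbered samples had correlations of their deviations of 0.20, 0.00, 0.19 and -0.03 over 13695 genes. CD1d-KO 1 correlated best with WT 1 (0.20), CD1d-KO 2 with WT 4 (0.14), and CD1d-KO 3 and 4 with WT 3 (0.19 and 0.26). Such correlations cannot decide whether samples were handled in pairs. With the replicate number as a block, 12 members were called higher, where 1.69% of all 14722 genes tested were. In that fit 1 member, Crot, was called lower (-1.51, adjusted p = 0.0258), where 2.17% of all genes were. The calls in all genes were 569. Those gained were Ppara (0.32, adjusted p = 0.00153), Angptl4 (0.82, adjusted p = 0.000349), Ehhadh, Plin2, Hadh and Hadha (adjusted p from 0.0223 to 0.0497), and Acot2 was not called (0.48, adjusted p = 0.0739).

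Uncalled genes near 0 changed sign. Without the samples with Y-linked counts the log2 fold change was -0.02 for Cpt1a, 0.09 for Echs1, 0.27 for Vnn1 and 0.03 for Hnf4a, and with WT 3 and WT 4 left out it was -0.05 for Acaa1a and 0.05 for Hnf4a. With single samples left out it ranged from -0.19 to 0.06 for Ppargc1a, -0.01 to 0.15 for Cpt2, -0.08 to 0.12 for Slc25a20, -0.03 to 0.06 for Acads, -0.05 to 0.03 for Echs1, -0.00 to 0.06 for Eci1, -0.07 to 0.11 for Etfb, -0.04 to 0.06 for Decr2, -0.20 to 0.14 for Vnn1, -0.04 to 0.06 for Acaa1a and -0.05 to 0.02 for Hnf4a.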
